A study of Mus musculus with 8 samples.

Results

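The germ line genes described here are 10 named mouse genes: Dppa3, Tfap2c, Nanos3 and Dnd1, known from primordial germ cells, and Ddx4, Dazl, Mael, Sycp3, Tex19.1 and Stk31, known as germ line genes that DNA methylation silences in somatic cells. They were listed by name, with earlier results of these data known, and all 10 were found among the 55421 identifiers of the deposited expression table. Poly-A RNA of E9.25 mouse embryos, which had 9 to 11 somites, had been sequenced. The embryos were either homozygous mutants (Gcnf-/-) or wild type for Gcnf, and each was cut into a posterior piece, from pharyngeal arch 2 backwards, and an anterior piece that held arch 1 and what lies in front of it. There were 4 groups of 2 libraries: mutant posterior (159 and 163), wild-type posterior (153 and 156), mutant anterior (159 and 163) and wild-type anterior (153 and 156). Sources used here do not give the part of the gene that the mutant allele lacks, the strain, or whether a library held 1 embryo, so p-values cover no more than the spread between the libraries at hand.

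Gcnf, the product of Nr6a1, is a nuclear receptor with no known ligand, which represses Pou5f1 and Nanog when the embryo leaves pluripotency. Mouse primordial germ cells arise at the posterior end of the epiblast and lie in the hindgut at the stage sampled, where they keep Pou5f1 and Nanog on after somatic cells have turned them off. A second class of germ line genes has promoters rich in CpG, which are methylated in somatic tissue around implantation and which the repressor E2f6 and a Polycomb complex with Max and Mga also hold shut. Germ cells are few, so their transcripts reach a whole-embryo library in small amounts.

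Depth was 27064113 to 52957993 reads in genes per library, recovered from the deposited TPM values (transcript abundance per gene length, scaled to the same total in each library). Nr6a1 itself was at 158 and 116 TPM in mutant posterior libraries, 157 and 165 TPM in wild-type posterior libraries, 240 and 202 TPM in mutant anterior libraries and 194 and 205 TPM in wild-type anterior libraries. Its total therefore did not check the genotype labels. Both mutant libraries 159 had Xist (25.3 and 30.9 TPM) and the other 6 libraries had Ddx3y of the Y chromosome (26.2 to 39.4 TPM), so sex was unequal between genotypes. Visceral endoderm and yolk sac markers, 10 genes with none at 0 in both libraries of a group, summed to 233 and 1121 TPM in mutant posterior libraries 159 and 163, against 2513 and 2095 TPM in wild-type posterior libraries 153 and 156. Primitive erythroid markers, 8 genes, summed to 22075 to 43850 TPM in mutant posterior libraries and 6323 to 7564 TPM in wild-type posterior libraries. Their sum was also higher in mutant anterior libraries, at 25381 to 43676 TPM, than in wild-type anterior libraries, at 4218 to 9872 TPM. Sums of the 8 markers of hindgut, the tissue that holds the germ cells, overlapped. They were 781 to 1026 TPM in mutant posterior libraries and 945 to 947 TPM in wild-type posterior libraries. In anterior libraries the same sum was 492 to 581 TPM in mutants and 482 to 504 TPM in wild type. It is therefore no measure of hindgut alone and does not show that germ cell tissue was matched.

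The members fell into 3 levels. Tfap2c was well above the detection limit, at 12.2 to 56.2 TPM and 334 to 1845 reads per library. Dnd1 and Ddx4 were low but above 10 reads in every library, at 1.45 to 3.72 TPM and 0.706 to 2.27 TPM. The other 7 members had 3 or fewer reads in at least 1 library, the count taken here as the limit of detection, which was worth 0.0523 to 0.452 TPM depending on gene length and depth. Of these 7, Dppa3, Nanos3 and Tex19.1 rose above the limit in some groups, and Dazl, Mael, Sycp3 and Stk31 lay near it, with 10 or fewer reads in every library. The filter for testing, at least 1 TPM in at least 2 libraries, kept 6 of the 10 members and 16699 genes in all. Nanos3 passed that filter through mutant posterior libraries alone, so a tested Nanos3 had to be high there, and Dppa3 and Tex19.1 passed it through posterior libraries of both genotypes alone. Reads were amplified, so intervals on read numbers cover counting error only.

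**Figure D1:**
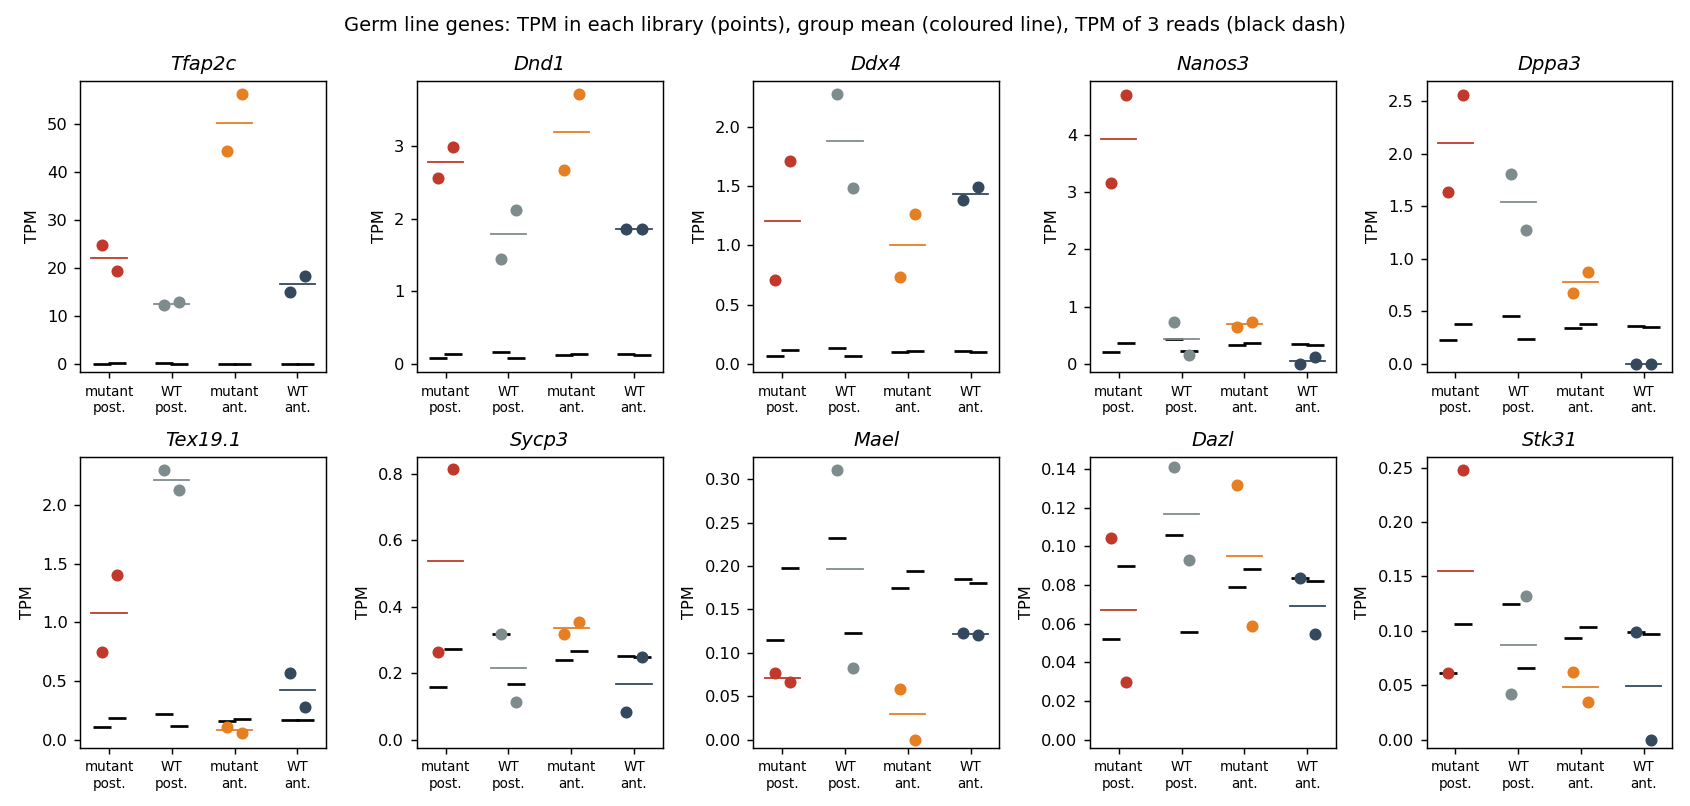
TPM of each of the 10 germ line genes (vertical axes, each on its own scale) in every library, by group, with mutant groups left of their wild-type groups. Points are libraries, coloured lines are group means and black dashes are the TPM that 3 reads would give. Tfap2c stands far above its dashes in all 8 libraries, while Dazl, Mael, Sycp3 and Stk31 lie at or near theirs.

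Nanos3 (ENSMUSG00000056155, chr8:84173731-84185217, minus strand, mm10), an RNA-binding protein that keeps migrating mouse germ cells alive, showed the greatest genotype difference of the tested members in posterior pieces. It stood at 3.17 and 4.71 TPM (44 and 38 reads) in mutant posterior libraries, against 0.727 and 0.154 TPM (5 and 2 reads) in wild-type posterior libraries. Both mutant libraries were above both wild-type libraries, of which 1 was below the detection limit. The difference was 1.79 ± 0.25 (SE) on the scale of log2(TPM + 1), with a limma adjusted p of 0.00384. The pooled reads gave a ratio of 10.6 with a 95% interval of 4.92 to 27.2. Because Nanos3 entered the test through these mutant libraries alone, a rise there was favoured beforehand, also in the alternatives that keep the filter. In bulk tissue such as this, more germ cells and more Nanos3 RNA per cell cannot be told apart. The call was lost without both wild-type libraries 153 (limma adjusted p = 0.0626), a choice made after seeing the data, and held in the other 18 of 19 alternatives.

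In anterior pieces Nanos3 was at 0.653 and 0.728 TPM (6 and 6 reads) in mutant libraries, against 0 and 0.113 TPM (0 and 1 reads) in wild-type libraries. The groups did not overlap, but 1 read stands for the whole wild-type group. The difference of 0.68 ± 0.25 did not pass (limma adjusted p = 0.087), and the pooled ratio of 12.1 had an interval of 1.78 to 516. It passed with a pseudocount of 0.1 (limma adjusted p = 0.0319), with voom on reads (0.0450) and with the 4 anterior libraries alone (0.0367). The test of posterior minus anterior genotype effect gave 1.11 ± 0.36 for Nanos3, with a limma adjusted p of 0.237, so the effects were not shown to differ. No exon base of Nanos3 is shared with another gene, and the microRNA genes Mir181c and Mir181d inside it had 0 reads.

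Dppa3 (ENSMUSG00000046323, chr6:122626410-122630272, plus strand), also called Stella, protects methylated DNA from demethylation in the mouse zygote and is a classical marker of germ cells in the embryo. Its values were 1.64 and 2.57 TPM (22 and 20 reads) in mutant posterior libraries, against 1.81 and 1.28 TPM (12 and 16 reads) in wild-type posterior libraries. These groups overlapped, and the difference of 0.28 ± 0.22 did not pass (limma adjusted p = 0.455). In anterior pieces it had 0.677 and 0.879 TPM (6 and 7 reads) in mutant libraries, against 0 reads in both wild-type libraries. Set against 3 reads in each wild-type library, the anterior mutant mean was at least 2.17-fold higher.

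The anterior difference of Dppa3 was 0.83 ± 0.22 and passed (limma adjusted p = 0.0276). It passed in 13 of 19 alternatives and rests on 13 mutant reads. It did not pass without mutant anterior library 159 (0.0643) or 163 (0.124), without wild-type anterior library 153 (0.114) or 156 (0.108), without both wild-type libraries 153 (0.168), or with no filter (0.0608). The difference between posterior and anterior genotype effects was -0.55 ± 0.31 for Dppa3 and did not pass (limma adjusted p = 0.523). Of the genes that start within 50 kb of Dppa3, Gdf3, a ligand of pluripotent cells, lies 16.3 kb away and had 12 pooled reads in mutant anterior and 0 in wild-type anterior libraries. Apobec1, a cytidine deaminase 24.0 kb away, had 21 reads in mutant anterior and 4 in wild-type anterior libraries. In posterior pieces, where Dppa3 did not pass, Gdf3 had 15 reads in mutant and 6 in wild-type libraries, and Apobec1 had 13 in mutant and 3 in wild-type libraries. Both stayed below the filter and were not tested.

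Tfap2c (ENSMUSG00000028640, chr2:172549593-172558622, plus strand), the AP-2 gamma factor that helps to specify mouse germ cells and that is also used in surface ectoderm and neural crest, was the most abundant member. It was at 44.5 and 56.2 TPM in mutant anterior libraries, against 15.0 and 18.4 TPM in wild-type anterior libraries. In posterior pieces it was at 24.9 and 19.4 TPM in mutant libraries, against 12.2 and 12.8 TPM in wild-type libraries. All 4 mutant libraries exceeded all 4 wild-type libraries. The anterior difference was 1.53 ± 0.16 (limma adjusted p = 0.000521), with a pooled read ratio of 2.99 (interval 2.80 to 3.20), and passed in 19 of 19 alternatives.

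The posterior difference of Tfap2c was 0.77 ± 0.16 (limma adjusted p = 0.0208) and passed in 12 of 19. It did not pass without mutant posterior library 159 (0.0747), without wild-type posterior library 153 (0.140) or 156 (0.0915), without both mutant libraries 159 (0.0723), without both wild-type libraries 153 (0.232), with no filter (0.0793) or with the 4 posterior libraries alone (0.0501). The effects in both regions differed by -0.77 ± 0.23 (limma adjusted p = 0.192), which did not pass. Group means ran from 50.3 ± 8.31 TPM (SD, n = 2) in mutant anterior and 22.1 ± 3.86 TPM in mutant posterior libraries to 16.7 ± 2.44 TPM in wild-type anterior and 12.5 ± 0.448 TPM in wild-type posterior libraries.

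Dnd1 (ENSMUSG00000044595, chr18:36763671-36766214, minus strand), an RNA-binding partner of Nanos proteins without which mouse germ cells are lost, was at 2.57 and 2.99 TPM in mutant posterior libraries, against 1.45 and 2.12 TPM in wild-type posterior libraries. In anterior pieces it was at 2.67 and 3.72 TPM in mutant libraries, against 1.86 and 1.86 TPM in wild-type libraries. Mutant libraries were above wild-type libraries in both regions without overlap, yet neither difference passed. They were 0.45 ± 0.20 (limma adjusted p = 0.178) in posterior and 0.54 ± 0.20 (limma adjusted p = 0.0787) in anterior pieces. Dnd1 shares 140 of its 2412 exon bases with Wdr55 on the opposite strand, a gene of the ribosome pathway with 5551 to 7610 reads per group, and a library that does not mark strand cannot tell reads there apart. Wdr55 itself was lower in mutant anterior pieces, by -0.44 ± 0.09 (limma adjusted p = 0.0106), a call lost without mutant anterior library 159 or either wild-type anterior library (up to 0.0932).

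**Figure D2:**
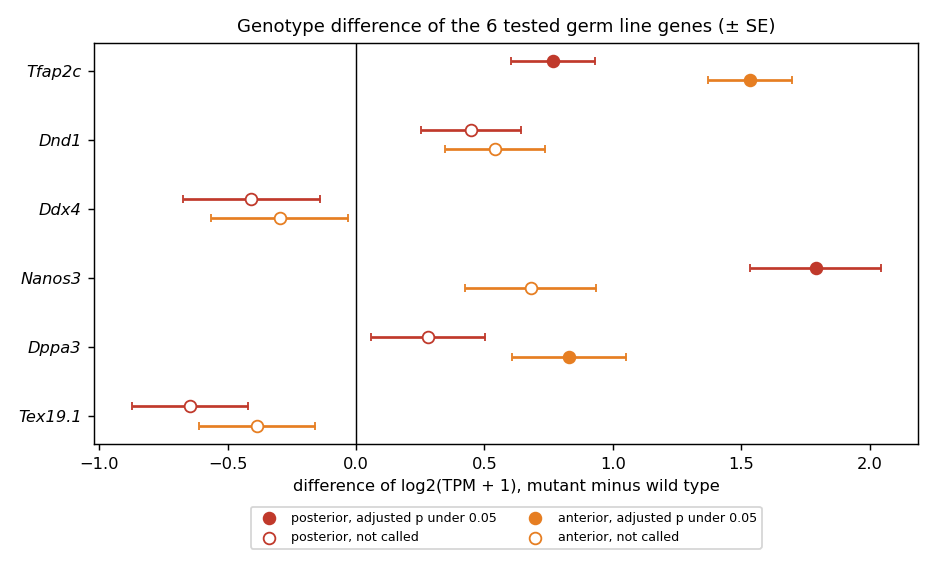
Genotype difference of the 6 tested germ line genes, mutant minus wild type, on the log2(TPM + 1) scale (horizontal axis), in posterior and anterior pieces. Points are fitted differences, bars are ± SE and filled points passed an adjusted p of 0.05. Nanos3 at 1.79 (posterior) and Tfap2c at 1.53 (anterior) lie farthest to the right, and Ddx4 and Tex19.1 lie left of 0 without passing.

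Ddx4 (ENSMUSG00000021758, chr13:112598333-112652475, minus strand), the Vasa RNA helicase that mouse germ cells turn on near their arrival in the gonad, was at 0.706 and 1.71 TPM (32 and 45 reads) in mutant posterior libraries, against 2.27 and 1.49 TPM (51 and 63 reads) in wild-type posterior libraries. In anterior pieces it was at 0.734 and 1.26 TPM (22 and 34 reads) in mutant libraries, against 1.38 and 1.49 TPM (39 and 43 reads) in wild-type libraries. Groups overlapped in posterior but not in anterior pieces, where mutant libraries were lower. Differences of -0.41 ± 0.27 (limma adjusted p = 0.359) in posterior and -0.30 ± 0.27 (limma adjusted p = 0.458) in anterior pieces did not pass.

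Tex19.1 (ENSMUSG00000039329, chr11:121146143-121148319, plus strand), which restrains retrotransposons in mouse germ cells and is also made in placenta, stood at 0.746 and 1.41 TPM (21 and 23 reads) in mutant posterior libraries 159 and 163, against 2.30 and 2.13 TPM (32 and 56 reads) in wild-type posterior libraries. In anterior pieces it had 0.107 and 0.0599 TPM (2 and 1 reads) in mutant libraries, against 0.569 and 0.279 TPM (10 and 5 reads) in wild-type libraries. Mutant libraries were below wild-type libraries in both regions, and both mutant anterior libraries were under the detection limit. By pooled reads the posterior ratio was 0.452 (0.308 to 0.657) and the anterior ratio 0.201 (0.0373 to 0.711).

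On the log scale the Tex19.1 differences of -0.65 ± 0.23 (limma adjusted p = 0.102) in posterior and -0.39 ± 0.23 (limma adjusted p = 0.251) in anterior pieces did not pass. After quantile normalization the posterior one did (-0.83, limma adjusted p = 0.0407). Summed visceral endoderm and yolk sac markers were also lower in mutant than in wild-type posterior libraries. In anterior libraries these were 12.3 and 19.0 TPM in mutant 159 and 163, against 148 and 18.9 TPM in wild-type 153 and 156. Of each pair of wild-type libraries 153 was the higher for both the markers and Tex19.1. Of the mutant posterior pair 163 was the higher for both, with markers at 1121 TPM against 233 TPM in 159. Mutant anterior 163 was higher than 159 for the markers and lower for Tex19.1, but there 163 had 1 Tex19.1 read and 159 had 2. Trophoblast markers, 9 genes of which Tpbpa was at 0 in every group, summed to 191 and 234 TPM in mutant posterior against 160 and 150 TPM in wild-type posterior libraries. The part of either tissue in the Tex19.1 values was not tested. Its paralog Tex19.2, 27.5 kb away, had 3 pooled reads in mutant posterior and 10 in wild-type posterior libraries, and 6 in mutant anterior and 2 in wild-type anterior libraries, and reads common to both copies could be split between them.

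The remaining members had 10 or fewer reads in every library, which leaves wide intervals on their ratios. Sycp3, part of the axis of meiotic chromosomes, had 5 and 9 reads in mutant posterior libraries, 3 and 2 in wild-type posterior libraries, 4 and 4 in mutant anterior libraries, and 1 and 3 in wild-type anterior libraries. In TPM the posterior groups overlapped, with mutant 159 at 0.263 TPM below wild-type 153 at 0.319 TPM, and 660 of its 1264 exon bases are shared with Chpt1, a lipid enzyme on the opposite strand with 1163 to 2104 reads per group. The pooled posterior ratio of 2.53 had an interval of 0.862 to 8.99 for Sycp3, and Chpt1 was higher in mutant posterior pieces by 0.64 ± 0.13 (limma adjusted p = 0.017; up to 0.0894 with 1 library left out), so the source of the Sycp3 reads cannot be told apart.

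Dazl, an RNA-binding protein that licenses gamete formation, had 28 reads in all, with 7 in mutant posterior, 9 in wild-type posterior, 7 in mutant anterior and 5 in wild-type anterior libraries. Mael, a piRNA pathway protein, had 14 reads, with 3 in mutant posterior, 6 in wild-type posterior, 1 in mutant anterior and 4 in wild-type anterior libraries. Stk31, a kinase-like protein of spermatogenic cells, had 23 reads, with 10 in mutant posterior, 7 in wild-type posterior, 3 in mutant anterior and 3 in wild-type anterior libraries. For Dazl, Mael and Stk31 every interval of a genotype ratio held 1, and the width of those intervals, for example 0.223 to 2.12 for Dazl in posterior pieces, shows what this depth could not resolve. A difference in these 3 genes was not detectable at this depth.

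Across the tested members, 2 of 6 passed in posterior pieces (Tfap2c and Nanos3, both higher in mutants), where 11.5% of all genes tested passed in either direction, 8.56% higher and 2.93% lower. Since Nanos3 was tested through its mutant posterior level, this count is a description and supports nothing. In anterior pieces 2 of 6 passed (Tfap2c and Dppa3, both higher in mutants), where 23.6% of all genes passed, 13.3% higher and 10.2% lower. With limma voom on reads of every gene with at least 10 reads, which tested all 10 members and was chosen after seeing the data, 2 members passed in posterior pieces (Tfap2c and Nanos3; background 12.7%) and 2 in anterior pieces (Tfap2c and Dppa3; background 20.4%). The median of the 10 differences, on voom's log2 scale, was 0.33 in posterior and 0.72 in anterior pieces, against 0.08 and 0.08 over all 23152 genes of that fit. Of these 10, Dazl, Mael, Sycp3 and Stk31 had 10 or fewer reads in every library, so the medians do not show a shift of the whole set. For the difference between the effects, limma passed 0 of 6 members (2 at an unadjusted p under 0.05; background 1.01%, with 0.599% higher and 0.413% lower) and voom 0 of 10 (2 unadjusted; background 0.95%).

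Along the body axis, Dppa3 and Tex19.1 passed as higher in posterior than in anterior pieces in both genotypes. Both had entered the test through posterior libraries alone, so a posterior difference was favoured beforehand, and the counts of members called along the axis are a description that supports nothing. In wild-type embryos Dppa3 had the 12 and 16 posterior reads given above and 0 anterior reads, at least 4.30-fold higher against 3 reads in each anterior library. Its difference was 1.34 ± 0.22 (limma adjusted p = 0.00416), passing in 18 of 18 alternatives. Tex19.1 averaged 2.21 ± 0.120 TPM (SD, n = 2) in posterior and 0.424 ± 0.206 TPM in anterior wild-type libraries, a difference of 1.18 ± 0.23 (limma adjusted p = 0.00847). That call was lost without wild-type anterior library 156 (0.0715) or wild-type posterior library 153 (0.0671) or 156 (0.0599). Of all genes tested 14.5% passed in wild-type embryos, 7.86% higher and 6.65% lower in posterior pieces. Visceral endoderm and yolk sac markers were also higher in posterior pieces, for 10 of 10 genes, and their part in these differences was not tested. With voom, 2 of 10 members passed (background 13.1%).

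In mutant embryos, Nanos3, Tex19.1 and Dppa3 passed as higher in posterior pieces and Tfap2c as lower, and 16.1% of all genes passed (8.01% higher, 8.1% lower). The 3 higher ones had entered the test through posterior libraries, Nanos3 through the mutant ones alone, so their count is not read against that share. With voom, 3 of 10 passed (background 15.1%), since Dppa3 did not (limma adjusted p = 0.0862). Nanos3 averaged 3.94 ± 1.09 TPM (SD, n = 2) in mutant posterior and 0.690 ± 0.0527 TPM in mutant anterior libraries, a difference of 1.53 ± 0.25 (limma adjusted p = 0.00383). Tfap2c was lower in mutant posterior pieces by -1.15 ± 0.16 (limma adjusted p = 0.00171), and both calls held in 18 of 18 alternatives. In wild-type embryos the same contrasts were 0.42 ± 0.25 for Nanos3 (limma adjusted p = 0.309) and -0.38 ± 0.16 for Tfap2c (limma adjusted p = 0.160), and the tests of the difference between genotypes are the interaction values given above, which did not pass.

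The mutant posterior rise of Dppa3 over the anterior, 0.79 ± 0.22 (limma adjusted p = 0.0428), held in 4 of 18 alternatives. It was lost without mutant anterior library 159 (0.171) or 163 (0.0983), without mutant posterior library 163 (0.219), and without any 1 wild-type library (0.0613 to 0.063), and with a replicate block it was at 0.0519. For Tex19.1 the mutant difference was 0.92 ± 0.23 (limma adjusted p = 0.0244), lost without mutant anterior library 159 (0.0811) or 163 (0.0989), mutant posterior library 163 (0.135) or wild-type posterior library 153 (0.0508) or 156 (0.0512). Dnd1 and Ddx4 passed in neither genotype, with differences between -0.14 ± 0.20 and 0.23 ± 0.27.

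**Figure D3:**
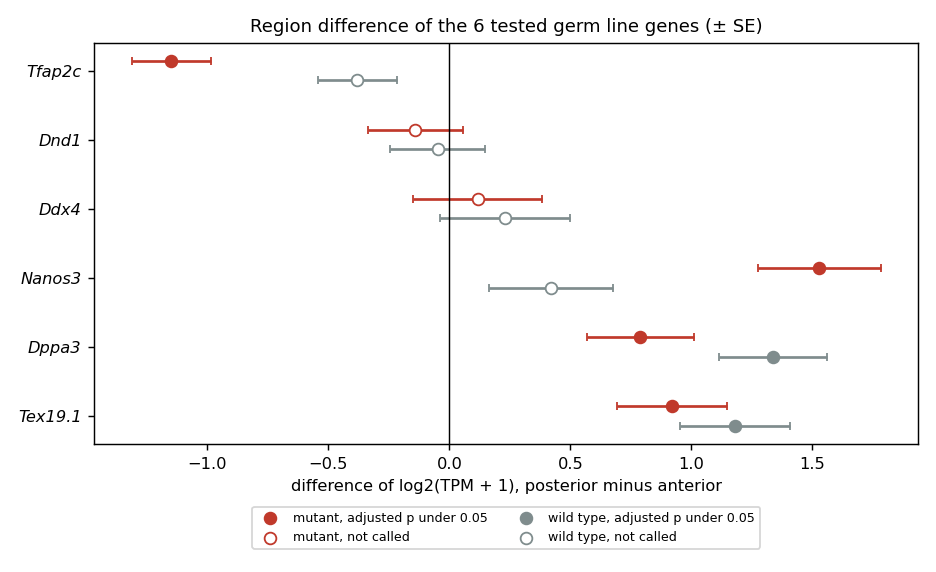
Region difference of the 6 tested germ line genes, posterior minus anterior, on the log2(TPM + 1) scale (horizontal axis), in mutant and wild-type embryos. Points are fitted differences, bars are ± SE and filled points passed an adjusted p of 0.05. Dppa3 and Tex19.1 passed to the right of 0 in both genotypes, and Nanos3 (1.53) and Tfap2c (-1.15) in mutants.

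Among 18 other genes used in primordial germ cells, 12 were tested. In posterior pieces 4 were higher in mutants and 2 lower (11.5% of all genes passed), and in anterior pieces 5 were higher and 2 lower (23.6% of all genes). Pou5f1 and Nanog, the pluripotency factors that germ cells keep, moved most. Pou5f1 was at 94.4 and 127 TPM in mutant anterior libraries against 1.94 and 1.81 TPM in wild-type anterior libraries, and at 77.2 and 62.0 TPM in mutant posterior against 3.95 and 4.18 TPM in wild-type posterior libraries. Nanog was at 19.7 and 22.2 TPM in mutant anterior against 0.903 and 1.07 TPM in wild-type anterior libraries, and at 5.05 and 3.68 TPM in mutant posterior against 0.420 and 0.539 TPM in wild-type posterior libraries. For both, all mutant libraries exceeded all wild-type libraries. Both were higher in anterior than in posterior mutant pieces (posterior minus anterior -0.65 ± 0.16 for Pou5f1, limma adjusted p = 0.0248, lost in 4 of 8 cases with 1 library left out, and -2.04 ± 0.17 for Nanog, limma adjusted p = 8.74e-05), as Tfap2c was. Nanos3 and Dppa3 were higher in posterior mutant pieces, but they entered the test through posterior libraries alone, which favoured this beforehand. The Dppa3 call held in 4 of 18 alternatives.

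The germ cell genes with wider use did not share a direction. Ifitm1, a membrane protein of germ cells and mesoderm, rose in both regions (posterior 0.67 ± 0.14, limma adjusted p = 0.0216; anterior 1.06 ± 0.14, limma adjusted p = 0.00162), and so did the migration receptor Cxcr4 (0.60 ± 0.12, limma adjusted p = 0.0183; 0.66 ± 0.12, limma adjusted p = 0.00645). Kit, the receptor that germ cells use to survive, rose in anterior pieces by 0.61 ± 0.13 (limma adjusted p = 0.012). Alpl, tissue alkaline phosphatase, was lower in both regions, by -0.38 ± 0.10 in posterior (limma adjusted p = 0.0444) and -0.44 ± 0.10 in anterior pieces (limma adjusted p = 0.0153). Ifitm3, called Fragilis, was lower in anterior pieces by -0.95 ± 0.21 (limma adjusted p = 0.0117). Prdm1, or Blimp1, which represses the somatic programme in germ cells, passed in neither region (posterior -0.23 ± 0.22, anterior 0.43 ± 0.22). With each of the 8 libraries left out in turn, Pou5f1, Nanog and the anterior rises of Ifitm1 and Cxcr4 held. The posterior rise of Ifitm1 was lost without any 1 posterior library (up to 0.118), and that of Cxcr4 without either wild-type one (up to 0.122). Kit (up to 0.0746) and anterior Alpl (up to 0.107) were lost without any 1 anterior library, posterior Alpl in 7 of the 8 cases (up to 0.201), and Ifitm3 without mutant anterior 159 or wild-type anterior 153 (up to 0.0828). Summed over 8 germ cell markers, levels overlapped between genotypes in posterior pieces, at 140 to 158 TPM in mutant and 143 to 165 TPM in wild-type libraries. In anterior pieces the sum was lower in mutants without overlap, at 109 to 118 TPM in mutant and 120 to 134 TPM in wild-type libraries. Ifitm3, Alpl and Kit, which other cells also use, made up most of these sums, with means of 66.5, 35.2 and 27.7 TPM in mutant posterior libraries.

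Prdm14, which re-sets pluripotency in mouse germ cells, stayed under the filter. It had 24 and 15 reads in mutant posterior libraries, 10 and 10 in wild-type posterior libraries, 2 and 4 in mutant anterior libraries and 0 in both wild-type anterior libraries. It thus shared with Dppa3 a wild-type anterior count of 0 and a few reads in mutant anterior pieces. By voom on reads its posterior minus anterior difference passed in mutant (limma adjusted p = 0.0184) and in wild-type embryos (0.00602), and its genotype difference passed in neither posterior (0.235) nor anterior pieces (0.0562).

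**Figure D4:**
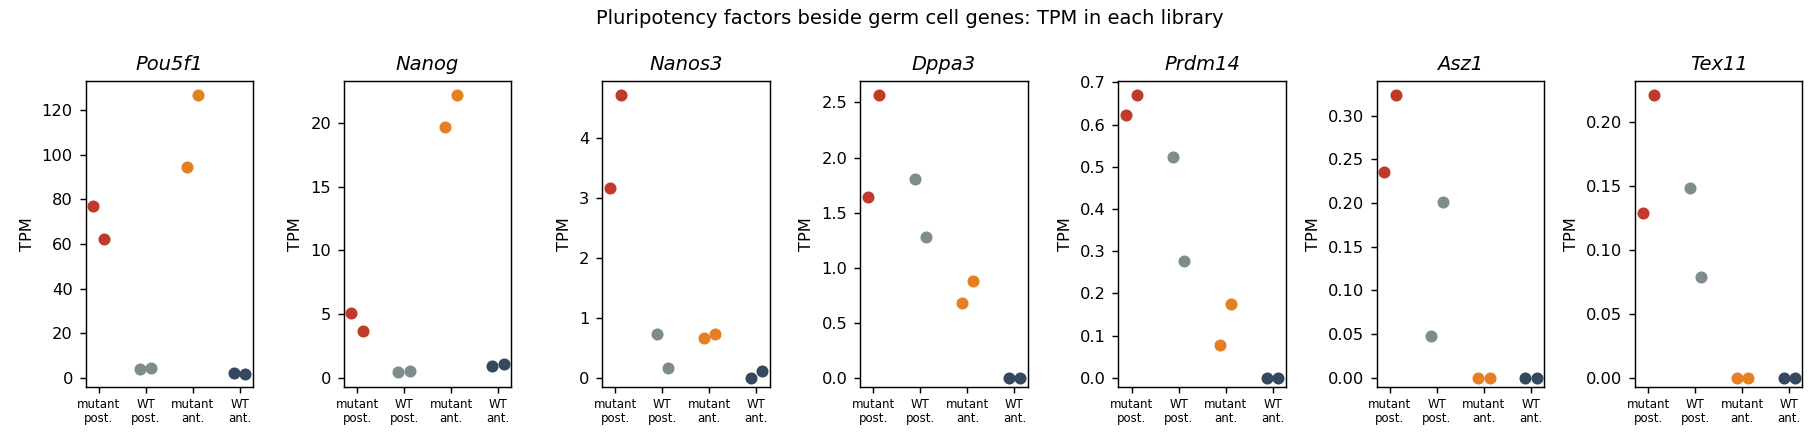
TPM in each library (points; vertical axes on their own scales) of Pou5f1 and Nanog beside Nanos3, Dppa3, Prdm14, Asz1 and Tex11, with mutant groups left of their wild-type groups. Pou5f1 and Nanog are highest in mutant anterior libraries, while the 5 other genes shown are highest in posterior libraries. Asz1 and Tex11 are at 0 in all 4 anterior libraries and were chosen for this. These 5 do not stand for germ cell genes as a class. Tfap2c and Dnd1, not shown, had their highest group means in mutant anterior libraries (50.3 and 3.19 TPM).

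Of 26 further genes of the piRNA pathway and other methylation-silenced germ line genes, 10 had 10 or fewer reads in every library and 2 (Gtsf1 and Dpep3) had none in any. In posterior pieces limma passed 0 of the 9 tested (2 at an unadjusted p under 0.05), where 11.5% of all genes passed. There voom passed 2 of 21, both lower in mutants, against a background of 12.7%. These were Tdrd12, a piRNA factor, at 0.951 and 0.581 TPM in mutant and 2.14 and 1.72 TPM in wild-type libraries (voom, limma adjusted p = 0.0204), and the helicase D1Pas1, a near copy of Ddx3x and Ddx3y with which it could share reads, at 0.331 and 0.392 TPM in mutant and 1.34 and 0.908 TPM in wild-type libraries (0.0279). Tdrd12 was also higher in posterior than in anterior wild-type pieces (1.26 ± 0.21, limma adjusted p = 0.00455), but it passed the filter through wild-type posterior libraries alone, so it had to be high there. In anterior pieces limma passed 2 of 9, both higher in mutants, where 23.6% of all genes passed. They were the Tudor proteins Tdrkh (0.68 ± 0.16, limma adjusted p = 0.0166) and Tdrd9 (0.63 ± 0.19, limma adjusted p = 0.0473). Of these, Tdrd9 passed the filter through mutant anterior libraries alone and so had to be high there. In anterior pieces voom passed 4 of 21 as higher (Tdrkh, Tdrd9, Piwil1 and Brdt) and 1 as lower (background 20.4%). The lower one was Piwil4, a PIWI protein with 7 pooled reads in mutant anterior against 49 in wild-type anterior libraries (voom, limma adjusted p = 0.0125). Leaving out 1 library ended the Tdrkh call in 2 of 8 cases, mutant anterior 163 and wild-type anterior 156 (up to 0.126), and the Tdrd9 call in 6, all but the mutant posterior ones (up to 0.182). Tdrkh (mean 14.8 TPM) and Tdrd9 (1.61 TPM) were highest in mutant anterior libraries. By contrast Asz1 and Tex11, chosen after their values were seen, had 0 reads in all 4 anterior libraries. In posterior libraries Asz1 had 10 and 8 reads in mutants against 1 and 8 in wild type, and Tex11 had 7 and 7 reads in mutants against 4 and 4 in wild type.

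Of 18 meiosis genes 8, and of 12 oocyte genes 8, had 10 or fewer reads in every library. Among the meiosis genes 5 were tested. In posterior pieces limma passed 0 of them (3 at an unadjusted p under 0.05), where 11.5% of all genes passed. There voom passed 2 of 14, both higher in mutants, against a background of 12.7%. In anterior pieces the cohesin Rec8 (0.70 ± 0.13, limma adjusted p = 0.00571) and the recombinase Dmc1 (0.71 ± 0.17, limma adjusted p = 0.0194) were higher in mutants. There 23.6% of all genes passed, and voom passed 2 of 14 meiosis genes (background 20.4%). Rec8 was lost without wild-type anterior library 156 (0.0514) and Dmc1 without any 1 anterior library (up to 0.107). Stra8, the switch into meiosis, had 0 reads in every anterior library and 2 pooled reads in mutant posterior against 7 in wild-type posterior libraries. Of 12 oocyte genes 3 were tested, and 0 passed for either genotype effect by limma, with 0 at an unadjusted p under 0.05, and 0 of 5 by voom. Zp2 and Oosp1 had no read in any library.

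Of 18 repressors and DNA methylation enzymes that act on germ line promoters, 17 were tested. In posterior pieces 1 was higher in mutants and 2 lower (11.5% of all genes passed), and in anterior pieces 3 were higher and 3 lower (23.6% of all genes). The methyltransferase Dnmt3b was at 59.9 and 51.5 TPM in mutant posterior against 92.9 and 85.2 TPM in wild-type posterior libraries (-0.67 ± 0.11, limma adjusted p = 0.00743), and was lower in anterior pieces too (-0.63 ± 0.11, limma adjusted p = 0.00505). L3mbtl2, a subunit of the Polycomb complex with Max and Mga, was lower by -0.39 ± 0.09 in posterior (limma adjusted p = 0.0301) and -0.41 ± 0.09 in anterior pieces (limma adjusted p = 0.0138). Tet2, a 5-methylcytosine oxidase, was higher in both regions (posterior 1.02 ± 0.16, limma adjusted p = 0.00659, and anterior 0.81 ± 0.16, limma adjusted p = 0.00906), and Tet1 in anterior pieces (0.82 ± 0.20, limma adjusted p = 0.02). The methyltransferase Dnmt3a went the other way from Dnmt3b in anterior pieces, higher in mutants by 0.42 (limma adjusted p = 0.0388). Max was lower there by -0.31 (limma adjusted p = 0.0405). The calls of Dnmt3a and Max each held in 11 of 19 alternatives. Without wild-type posterior library 153 the posterior calls of Dnmt3b (0.0776) and Tet2 (0.0600) were lost, while the anterior call of Dnmt3b held without any 1 library. Anterior Tet2 was lost without mutant anterior 163 or either wild-type anterior library (up to 0.0576), L3mbtl2 (up to 0.106) and Tet1 (up to 0.0963) without any 1 anterior library, and posterior L3mbtl2 in 6 of 8 cases (up to 0.149).

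Of the 4 other AP-2 genes, 2 passed as higher in mutant anterior pieces, where 23.6% of all genes passed. Tfap2e (1.15 ± 0.20, limma adjusted p = 0.00442) and Tfap2d (0.90 ± 0.21, limma adjusted p = 0.0147) were higher in mutant anterior pieces, but both passed the filter through mutant anterior libraries alone and so had to be high there. Tfap2a, the AP-2 factor of neural crest and ectoderm, did not pass there (0.36 ± 0.14, limma adjusted p = 0.0876), and Tfap2b was lower in mutant posterior pieces (-0.60 ± 0.16, limma adjusted p = 0.046). With 1 library left out Tfap2e held throughout, Tfap2d was lost in 3 of 8 cases (up to 0.0923) and Tfap2b in 7 (up to 0.170). In mutant embryos 4 of 4 passed as lower in posterior than in anterior pieces, as 8.1% of all genes did. Since Tfap2d and Tfap2e entered the test through mutant anterior libraries alone, this was favoured beforehand for them. In wild-type embryos 2 of 4 (Tfap2a and Tfap2b) passed as lower, as 6.65% of all genes did. Among markers of tissues that use AP-2 factors, 4 of 8 neural crest genes were lower and 0 higher in mutant anterior pieces, and 1 of 8 surface ectoderm genes was higher and 0 lower, while voom passed 1 as higher in each list. Their part in the Tfap2c values was not tested. The 8 neural crest markers summed to 223 to 227 TPM in mutant anterior against 330 to 347 TPM in wild-type anterior libraries, and the 8 surface ectoderm markers to 560 to 698 TPM in mutant anterior against 629 to 694 TPM in wild-type anterior libraries.

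Likeness over the 8 libraries, as Pearson's r of log2(TPM + 1) with every tested protein-coding gene, is given as a description, since these libraries share 4 groups. Tfap2c was most like Hhipl1 (0.993), Marcks (0.993) and Rab6b (0.992). Hhipl1 averaged 7.70 TPM in mutant anterior and 1.27 TPM in wild-type anterior libraries. Nanos3 was most like Zfp110 (0.987), Crispld2 (0.984) and Rsad2 (0.979), of which Crispld2 averaged 19.1 TPM in mutant posterior and 4.14 TPM in wild-type posterior libraries. Dnd1 was most like Ap5z1 (0.981), Lzts3 (0.976) and 1600014C23Rik (0.976), and Ddx4 most like 2200002D01Rik (0.970), Cd68 (0.970) and Mon1a (0.949). Tmco6, which starts 31.2 kb from Dnd1, was higher in mutants in both regions (0.67 ± 0.11, limma adjusted p = 0.00617; 0.87 ± 0.11, limma adjusted p = 0.000942), the posterior call ending without wild-type posterior 153 (0.0509).

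Promoter sequence from RefSeq (GRCm38.p6, the mm10 build) was at hand for 7 members with 8 promoters, and Dppa3, Tfap2c and Dnd1 are named only. The 250 bases before the start of Nanos3, Tex19.1 and Ddx4 are shown, 5′ to 3′ on the gene's own strand, because Nanos3 rose in mutants while Tex19.1 and Ddx4 did not. They are chr8:84176553-84176802 (minus strand), chr11:121145893-121146142 (plus) and chr13:112652311-112652560 (minus). Because they were picked by outcome, their contrast cannot link promoter content to genotype response. Of the members called higher in mutants, only Nanos3 had a promoter at hand. The annotated Nanos3 gene used for read lengths begins upstream of that RefSeq start. Capitals mark TCCCGC or its reverse complement, the core motif of E2f6, and CACGTG, the E-box read by Max and Mga.
Nanos3: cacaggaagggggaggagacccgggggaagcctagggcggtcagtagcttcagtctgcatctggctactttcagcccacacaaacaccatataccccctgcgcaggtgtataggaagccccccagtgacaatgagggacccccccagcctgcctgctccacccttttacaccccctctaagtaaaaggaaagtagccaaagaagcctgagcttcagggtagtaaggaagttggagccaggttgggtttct
Tex19.1: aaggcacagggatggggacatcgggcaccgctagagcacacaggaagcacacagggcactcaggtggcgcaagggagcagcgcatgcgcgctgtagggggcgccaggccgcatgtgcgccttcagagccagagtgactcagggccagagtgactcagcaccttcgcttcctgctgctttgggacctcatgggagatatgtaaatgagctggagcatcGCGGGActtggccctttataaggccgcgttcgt
Ddx4: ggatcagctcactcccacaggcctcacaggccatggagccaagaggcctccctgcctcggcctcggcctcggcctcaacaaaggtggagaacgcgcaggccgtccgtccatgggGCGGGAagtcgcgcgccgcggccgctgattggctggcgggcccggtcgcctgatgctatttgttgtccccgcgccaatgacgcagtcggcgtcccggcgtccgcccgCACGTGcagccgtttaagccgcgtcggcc

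The Nanos3 sequence held no capital and 3 CpG, 1.2 per 100 bases. The Tex19.1 sequence held 15 CpG (6.0 per 100 bases) and an E2f6 motif 33 bases before the start, on the opposite strand. The Ddx4 sequence held 31 CpG (12.4 per 100 bases), an E2f6 motif 136 bases and an E-box 29 bases before the start. Over windows that also include 50 bases after the start, with both strands searched, TCCCGC was in 4 of the 8 promoters (Ddx4, Mael, Sycp3 and Tex19.1), against 20.0% of 32851 promoters of the table. CACGTG was in 5 of the 8, from 4 genes (Ddx4, Mael, Stk31 and Sycp3), against 7.15% of all. Both Stk31 windows overlap and hold the same E-box, which is thus counted once for each. The median was 8.67 CpG per 100 bases for the 8 and 2.33 for all. TCCCGC and CACGTG each contain CG, so CpG-rich windows favour them beforehand. TCAAGGTCA, the extended response element bound by Nr6a1, was in 0 of the 8 and 0.423% of all, and its core AGGTCA was in the Sycp3 promoter, against 16.3% of all. These letters are a description of the windows and do not show binding.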

How the data were processed

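Poly-A RNA of 8 libraries was measured. Tissue was stored in RNAlater and the library kit was not stranded, per the labels' protocols. CASAVA 1.8.2, STAR and the mm10 build are named, per the submitters' processing notes. Not given in the sources used here were the STAR version, the annotation and the counter. Values are TPM in 1 table made and deposited by the authors, and they are relative: a gene class that takes more of a library lowers the rest.

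TPM times the exon length of the GENCODE M21 annotation (GRCm38) came out as a whole number of reads (tolerance 0.01) for 98.8% to 98.89% of values, and exactly for every member. Of 55421 identifiers, 55240 had a name. Genes with at least 1 TPM in at least 2 libraries (16699) were fitted as log2(TPM + 1), which understates changes of low genes, with limma 3.58.1 in R 4.3.3: 4 group means, a trended spread, 4 residual degrees of freedom, two-sided tests, Benjamini-Hochberg adjustment over all genes tested and a threshold of 0.05. Read ratios carry exact conditional 95% intervals (scipy 1.17.1), and 3 reads was the detection limit. The fit was tested on simulated data with changes placed only in genes with many reads. That test does not cover members with few reads.

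Named genes were all 10 members, up to 4 per list by smallest genotype p, Pou5f1, Nanog, cell type markers, neighbours within 50 kb and the 3 genes most like each of the 4 highest members. D1Pas1, Piwil1, Piwil4, Brdt, Asz1, Tex11, Stra8, Gtsf1, Dpep3, Zp2, Oosp1, Tmco6, Dnmt3a and Max, named for a call or a count of 0, were chosen after their values were seen. The members and lists were chosen with earlier results of these data known. Library numbers were not shown to pair the libraries: the labels do not tie a number to an embryo, and deviations from group means correlated at 0.136 between pieces of the mutant numbers and 0.0216 of the wild-type numbers, although both pieces numbered 159 had Xist and the erythroid marker sum was higher in 159 than in 163, and in 156 than in 153, in both pieces. Alternatives were other pseudocounts, filters, scalings, voom, fewer libraries and a replicate block.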

Additional observations from a re-analysis of the deposited data

Results flagged for a closer look

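For Pou5f1 and Nanog, genes that germ cells keep on, the genotype effects in posterior and anterior pieces differed by the interaction test, whereas 0 of 6 tested germ line genes passed it. Pou5f1 was higher in mutants by 3.79 ± 0.16 in posterior and 5.26 ± 0.16 in anterior pieces, a difference of -1.47 ± 0.23 (limma adjusted p = 0.0258). Nanog was higher in mutants by 1.85 ± 0.17 in posterior and 3.46 ± 0.17 in anterior pieces, a difference of -1.62 ± 0.25 (limma adjusted p = 0.0244). Differences are on the log2(TPM + 1) scale, with SE. The Pou5f1 difference did not pass without mutant anterior library 163 or without any 1 of the wild-type libraries (limma adjusted p up to 0.153). The Nanog difference did not pass without either mutant anterior library or without any 1 of the wild-type libraries (limma adjusted p up to 0.138). Over all alternatives Pou5f1 passed in 8 of 17 (limma adjusted p up to 0.153) and Nanog in 5 of 17 (up to 0.276), and neither passed with no filter, with either voom fit or with a replicate block.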

How the results depend on the processing

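Members called were 2 for each genotype effect, 0 for their difference, 4 for the region effect in mutants and 2 in wild type. With no filter each genotype effect kept 1. With the compared libraries alone the posterior genotype effect had 1 and the mutant region effect 2. Without both libraries 153 the posterior effect had 0 and the anterior 1, and without both libraries 159 the posterior had 1 (both chosen after seeing the data). Calls over all genes also fell: without both libraries 153 they were 79 in posterior and 478 in anterior pieces, against 1919 and 3937 with all, and with no filter 954 and 2808. Leaving out each library in turn gave 1 to 2 for either genotype effect, 0 to 0 for their difference, 2 to 4 for the mutant and 1 to 2 for the wild-type region effect. With a replicate block, the difference had 0, the mutant region effect 3 (Dppa3 lost, limma adjusted p = 0.0519) and the wild-type region effect 2; the numbers were not shown to pair the libraries.

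Some signs turned, in no case with a call, and the cause was not tested. Leaving out each library in turn, the difference of effects ran between -0.45 and 0.22 for Ddx4 (-0.11 with all) and between -0.27 and 0.088 for Dnd1 (-0.09 with all). The mutant region effect ran between -0.22 and 0.45 for Ddx4 (0.12) and between -0.32 and 0.040 for Dnd1 (-0.14), and the wild-type region effect of Dnd1 (-0.05) between -0.22 and 0.13. That last value was 0.0085 with median-of-ratios scaling and 0.056 and 0.052 with voom (filtered, and with at least 10 reads). The difference of effects of Tex19.1 (-0.26) was 0.43 with a pseudocount of 0.1 and 0.73 with either voom fit. Over all genes, 74.5% of posterior calls were higher in mutants, against 54.3% with median-of-ratios scaling and 53.9% with quantile normalization. The number of members with 3 or fewer reads in a library was 7, and 7 with a limit of 10 reads; the E2f6 motif stayed at 4 promoters in 250 bases. Comparisons of Dazl, Mael, Sycp3 and Stk31 were limited by their low read counts.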
